A study of Mus musculus with 17 samples.

Results

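Untreated lungs of mice that carried a distant tumor were compared with untreated lungs of tumor-free mice, 8 of the 16 lung libraries and of the 17 libraries in all. The 4 tumor_untreated libraries came from C57BL/6 mice with M3-9-M ffluc-mCherry tumors. M3-9-M is a mouse rhabdomyosarcoma line, a muscle-lineage sarcoma, and 500000 cells had been placed in the gastrocnemius muscle of the leg, with lungs taken on day 15. The 4 naive_untreated libraries came from C57BL/6 mice with no tumor and no cell treatment, and whether they received a mock injection is not stated. Another group of 4, naive_GEMy, is used only to show where the tumor-bearing lung differed from a lung given cells that secrete interleukin-12. These C57BL/6 mice had no tumor and received 8000000 intravenous IL12-GEMys, genetically engineered myeloid cells that secrete the cytokine, 3 days before lungs were taken. The remaining lung group had both tumor and IL12-GEMys and contributed only to the shared estimate of spread. Sex and age are not given, 1 tumor line was used, and whether the libraries of a group are separate mice is not stated, so the tests see only the spread between libraries, which may be technical.

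Tumors can change a lung before tumor cells settle there, a state called the pre-metastatic niche. Factors from the primary tumor act on bone marrow, and neutrophils and monocytes leave the marrow, enter the lung and release S100 proteins, proteases and cytokines. Interferons act separately, through receptors on nearly every cell, and switch on GTPases, antiviral genes and antigen presentation through STAT and IRF factors. In whole lung RNA more cells of a type and more RNA per cell cannot be told apart.

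Read depth was 27566837 to 33150515 assigned reads in the 8 libraries, and 10284 of 18262 genes reached 0.5 FPKM (fragments scaled by gene length and library size) in at least 4 lung libraries and were tested with limma at an adjusted p under 0.05. The labelled tissue was checked on its markers. The summed level of 6 lung epithelial markers was 13342 to 14575 FPKM in naive_untreated and 9073 to 11794 in tumor_untreated. Summed neutrophil markers were at 58.5 to 91.1 FPKM in naive_untreated and at 1226 to 2227 in tumor_untreated. Thymocyte markers summed to 0.0354 to 0.0448 FPKM in naive_untreated and 0.038 to 0.382 in tumor_untreated. Liver markers summed to 0.0749 to 0.122 FPKM and 0.0686 to 0.247. Hemoglobin genes, a sign of blood in the tissue, took 0.190 to 1.51% of reads in naive_untreated and 1.28%, 1.54%, 0.553% and 5.41% in tumor_untreated libraries 1 to 4. That difference was 1.60 on the log2 scale, exact permutation p = 0.171, two-sided, where 4 against 4 cannot go below 0.0286.

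In tumor_untreated 4530 genes (44.0%) passed the threshold, 1733 higher (16.9%) and 2797 lower (27.2%). The rises were the larger changes, since 336 genes (3.27%) rose at least 2-fold and 10 genes (0.0972%) fell at least 2-fold. All 4 libraries of one group lay outside the range of the other for 3932 genes (38.2%). Log2 differences are on log2(FPKM + 0.5) and understate changes of genes at low level, and the median over all genes was -0.05. With median-of-ratios scaling that median was 0.02 and the split turned to 2416 higher and 1751 lower.

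**Figure D1:**
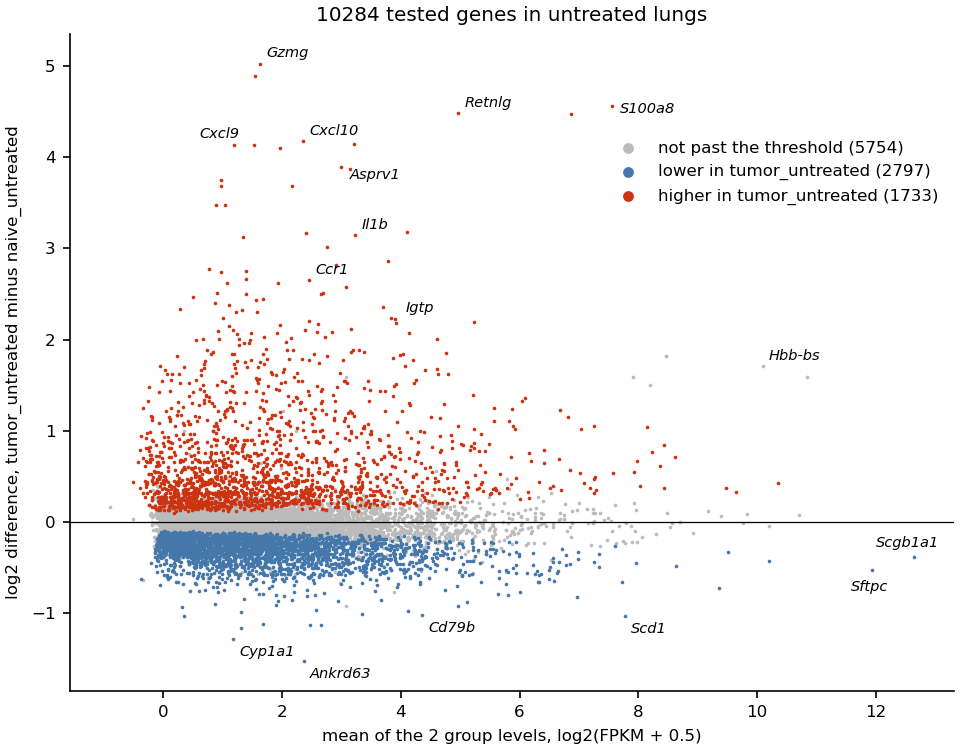
Each point is 1 of 10284 tested genes in untreated lungs, with the mean level of the groups as log2(FPKM + 0.5) on the x axis and the log2 difference, tumor_untreated minus naive_untreated, on the y axis. Red points (1733) were higher and blue points (2797) lower at an adjusted p under 0.05, and the rises reach 5.03 while the falls end at -1.53.

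The tumor-bearing libraries varied more among themselves than the naive ones. Pearson correlations were 0.9921 to 0.9966 within naive_untreated and 0.9729 to 0.9952 within tumor_untreated, and the SD was larger in tumor_untreated for 69.9% of genes. The first principal component of the 8 libraries held 78.1% of their variance and put tumor_untreated libraries 1 to 4 at 9.82, 18.7, 23.1 and 36.0, with naive_untreated between -23.5 and -19.7. Library 1 lay closest to the naive mean for 73.1% of the genes that were higher, and library 4 lay farthest for 74.8% of the genes that were lower. Library 4 also held the most hemoglobin reads. Counts from a fit with hemoglobin as a covariate stand beside several of the lists below.

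Of the 54 lists described, the neutrophil list had the largest median shift. Of 24 tested genes of neutrophil granules and surface, 22 rose and none fell, with a median log2 difference of 2.43 against -0.05 over all genes. The median was 2.41, 2.25, 1.99 and 2.87 in tumor_untreated libraries 1 to 4, so library 1 was not the lowest here. The count was also 22 of 24 without library 4, without library 1 and with the hemoglobin covariate.

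S100a8, a subunit of the calprotectin complex that neutrophils store in their cytosol, stood at 30.5, 31.5, 41.6 and 48.3 FPKM in naive_untreated. In tumor_untreated it stood at 918, 788, 675 and 1273 FPKM. Every tumor-bearing library was far above every naive one, a log2 difference of 4.56 (SE 0.32, adjusted p = 7.05e-08 in limma). Cxcr2, the receptor that draws neutrophils to CXC chemokines (chromosome 1), read 1.6, 1.88, 1.98 and 1.75 FPKM in naive_untreated and 31.3, 27.4, 29.7 and 47.6 in tumor_untreated. Its groups did not overlap, a log2 difference of 3.87 with an SE of 0.23 and adjusted p = 2.42e-08. Mmp8, the neutrophil collagenase, was at 0.644, 0.641, 0.699 and 0.863 FPKM in naive_untreated and at 24.4, 10.6, 9.62 and 20.7 in tumor_untreated. Here libraries 1 and 4 were the high ones, and the log2 difference was 3.69 (SE 0.36). Ly6g, the surface marker by which mouse neutrophils are sorted, went from at most 0.174 FPKM to 7.52, 5.34, 4.69 and 8.10. No naive_untreated library of Ly6g reached the 0.5 FPKM minimum, so it was tested only through other lung groups, which favours a rise.

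The granule genes did not move alike. Mmp9 (gelatinase B, log2 2.86), Csf3r (the G-CSF receptor, 2.82), Retnlg (4.49) and Trem1 (an amplifier of myeloid activation, 2.62) are made by mature neutrophils, and all rose. Ngp, a granule gene of maturing neutrophils, rose by 2.36 (SE 0.65, adjusted p = 0.00956). Camp, the cathelicidin of secondary granules, read 1.45 to 3.41 FPKM in naive_untreated and 5.44 to 5.77 in tumor_untreated, which did not pass (adjusted p = 0.0582). Ltf, lactoferrin of the same granules, was level at 0.02 on the log2 scale, with overlapping groups. Of 7 tested primary granule and progenitor genes, Ctsg (cathepsin G, log2 1.66) and Prtn3 (proteinase 3, 1.21) rose, Cebpa (-0.30) and Chil1 (-0.41) fell, and Elane (neutrophil elastase) was at 0.77 with adjusted p = 0.0564. Mpo, Ms4a3, Fcnb, Gfi1 and Prss57 of that list were under the minimum level and were not tested. Their reads over naive_untreated and tumor_untreated were 240 and 700 (Mpo), 8 and 37 (Ms4a3), 11 and 105 (Fcnb), 113 and 238 (Gfi1) and 37 and 95 (Prss57). In FPKM every tumor-bearing library was above the naive range for all but Prss57, whose groups overlapped.

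Few cytokines that call neutrophils out passed the test in the lung itself. Of 7 tested members of that list, only Osm (oncostatin M) rose, from 0.262, 0.426, 0.381 and 0.42 FPKM to 1.93, 1.68, 1.86 and 4.45, and Lif fell by 0.32 on the log2 scale. Like Ly6g, Osm reached the minimum in no naive_untreated library, which favours a rise. Cxcl1 (log2 0.15) and Csf1 (0.08) did not pass. Csf3, the granulocyte growth factor G-CSF, had 3 reads over the naive_untreated and 10 over the tumor_untreated libraries, and Il6 had 16 and 65. Cxcl2, a CXCR2 ligand, was under the minimum and was not tested, with 0.0702, 0.0334, 0 and 0.0495 FPKM (9 reads) in naive_untreated. In tumor_untreated Cxcl2 read 0.34, 0.827, 1.37 and 3.32 FPKM (372 reads), every library above the naive range. Cxcl3, another ligand under the minimum, was at 0.0675 to 0.171 FPKM (27 reads) in naive_untreated and 0.469 to 1.82 (228 reads) in tumor_untreated. Cxcl5 was lower in every tumor-bearing library, also without a test, at 0.40 to 0.68 FPKM in naive_untreated and 0.125 to 0.318 in tumor_untreated.

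Other leading genes are also known from myeloid cells, but which cells carried them in these lungs was not tested. Wfdc17 (log2 4.15), Slfn4 (4.10) and Asprv1 (3.90) are expressed by activated monocytes and neutrophils or, for Asprv1, by skin and neutrophils. Slfn4 read 0.354 to 0.543 FPKM in naive_untreated and 11.0, 15.9, 15.8 and 20.8 in tumor_untreated, with an SE of 0.18 and adjusted p = 1.33e-09. Asprv1 read 1.22 to 2.00 FPKM and 33.8, 32.3, 25.4 and 29.8. Both had tight and well separated groups.

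**Figure D2:**
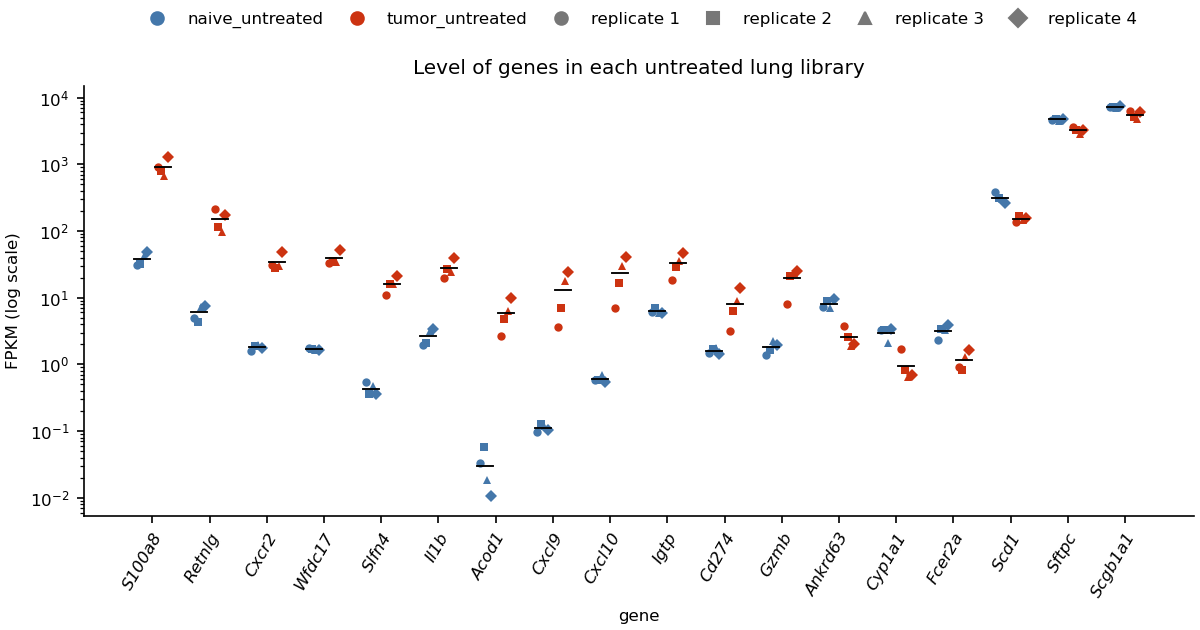
FPKM on a log scale (y axis) of 18 genes (x axis) in each untreated lung library, with blue for naive_untreated, red for tumor_untreated, 1 symbol for each replicate number and a line at the group mean. S100a8, Cxcr2 and Wfdc17 are highest in library 4 with library 1 near the other libraries, while Cxcl9, Cxcl10 and Igtp are lowest in library 1 and highest in library 4.

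Monocyte and macrophage genes rose with them. Of 15 tested monocyte genes 13 rose (median 1.15), led by Fcgr4 (the activating receptor for IgG2, log2 2.43) and Ly6c2 (2.24), a marker of inflammatory monocytes. Ccr2, the receptor by which those monocytes leave the marrow, stood at 6.06, 7.63, 8.18 and 5.98 FPKM in naive_untreated and 11.1, 20, 26 and 24.8 in tumor_untreated, without overlap. Fn1 (log2 0.07) and Ace (-0.09) did not pass, and without library 4, or with the hemoglobin covariate, the count was 11. Among 12 genes of interstitial macrophages 7 rose, among them Spp1 (osteopontin, 1.22) and the 3 C1q chains C1qa (0.74), C1qb (0.97) and C1qc (0.83). Apoe fell by 0.36, but did not pass with tumor_untreated replicate 4 left out (adjusted p = 0.0623), with naive_untreated replicate 2 (0.0548) or 4 (0.0793) left out and with the hemoglobin covariate (0.145). Of 12 tested alveolar macrophage genes 1 rose (Itgax, 0.63) and 2 fell (Plet1, -0.21, and Ctsk, -0.29), and Siglecf differed by 0.01.

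Activation genes of macrophages gave 10 rises among 14 (median 1.11). Acod1, which makes itaconate, was at 0.0106 to 0.057 FPKM in naive_untreated and at 2.68, 4.82, 6.41 and 9.99 in tumor_untreated, a log2 difference of 3.48 (SE 0.28). Acod1 also reached the minimum in no naive_untreated library. Il1b, interleukin-1 beta, was at 1.96, 2.11, 3.17 and 3.37 FPKM and then at 19.6, 27.1, 24.6 and 39.8, a log2 difference of 3.15 with adjusted p = 5.96e-08. Its natural brakes rose too, Il1rn (receptor antagonist) by 1.55 and Il1r2 (decoy receptor) by 1.33, while Il1r1, the signalling receptor, was 0.16 lower on the log2 scale, which did not pass with tumor_untreated replicate 4 (adjusted p = 0.0541) or naive_untreated replicate 3 (0.0536) left out. Arg1 (arginase, 1.25) and Tnf (1.42) rose, and Ptgs2 (cyclooxygenase 2, 0.27), Cd38 (0.19) and Cd40 (0.07) did not pass. Nos2, the inducible nitric oxide synthase, was under the minimum and was not tested. It read 0.22 to 0.292 FPKM (1118 reads) in naive_untreated and 0.273, 0.499, 0.764 and 0.656 (2634 reads) in tumor_untreated. Cd80, Cd86 and Msr1 were under the minimum too, with every tumor-bearing library above the naive range.

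Receptors of myeloid cells rose as a block. All 31 tested Fc and paired receptors rose (median 1.61), from Ms4a8a at 0.35 to Lilr4b at 2.67. They include activating and inhibitory members alike: Pira2 (2.32) and its inhibitory partner Pirb (2.12), Trem1 (2.62), Siglece (2.01) and Cd33 (2.16), and the shared signalling adaptors Tyrobp (1.62) and Fcer1g (1.71). Pirb, which binds class I molecules, was at 3.26 to 4.25 FPKM in naive_untreated and 15.9 to 20.2 in tumor_untreated. All 31 stayed called without library 4, without library 1 and with the hemoglobin covariate. In the phagocyte oxidase and lysosome list 12 of 23 rose and 5 fell. The oxidase genes Cybb (1.30), Ncf1 (0.97) and Ncf4 (1.31) rose, the lysosomal genes Lamp1 (-0.11) and Ctsd (0.13) did not pass and Lyz1 fell by 0.48.

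Pattern receptors and the inflammasome gave 18 rises and 2 falls among 23. Tlr13 (2.03), which senses bacterial ribosomal RNA, Tlr6 (1.34) and Tlr2 (1.14) led, with the adaptor Myd88 (1.00) and with Casp1 (1.22) and Nlrp3 (0.93), parts of the inflammasome that matures interleukin-1 beta. Tril, a TLR4 accessory protein, fell from 7.99 to 9.68 FPKM in naive_untreated to 4.61, 3.98, 4.05 and 2.48 in tumor_untreated (log2 -1.14, adjusted p = 9.18e-06). Tlr4 itself rose by 0.64. In the tumor necrosis factor and NF-kappaB list 15 of 25 rose and 2 fell, led by Tnfsf14 (LIGHT, 1.96), Tnfrsf1b (1.24) and the inhibitor Nfkbia (0.78).

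Complement genes moved in both directions. The receptors C5ar1 (1.73) and C3ar1 (0.77) rose, and properdin (Cfp) rose by 1.15 with the C1q chains. The liver-type components C3 (0.02) and C4b (0.01) did not pass, and the regulators Cd55 (-0.24) and Cd59a (-0.37) fell. In all 8 rose and 6 fell of 19 (median 0.02), against 16.9% and 27.2% of all genes, so the share of falls was near that of all genes. With the hemoglobin covariate or median-of-ratios scaling 1 fell. In the coagulation list 6 of 24 rose and 1 fell, against 16.9% and 27.2% of all genes. Among the rises were F10 (factor X, 1.46), Plaur (the urokinase receptor, 1.36), Thbs1 (0.98), F13a1 (0.69) and Plat (0.43). Platelet genes such as Pf4 (0.33) and Itga2b (0.24) did not pass.

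Many risen genes were neighbours. Runs of at least 4 consecutive tested genes that each rose at least 1.5-fold numbered 17, with 90 genes on 9 chromosomes, and no such run fell. A fold cut favours rises here, since 336 genes rose at least 2-fold and 10 fell, so the lack of falling runs says little. How many runs scattered genes would give was not tested. Most runs are families of duplicated genes, in which reads of near-identical copies can be split or shared, so single members are uncertain. On chromosome 11 all 7 tested Cd300 receptors rose, on chromosome 6 all 6 C-type lectins from Clec4a1 to Clec4e, and on chromosome 17 the 6 genes around Trem1. On chromosome 14, from 56082164 to 56262334 in mm10, 8 neighbours from Mcpt8 to Gzmb rose, including Gzmc, Gzmd, Gzme, Gzmf and Gzmg. Of these, Gzmd, Gzmf and Gzmg reached the minimum only through tumor-bearing lungs, so a rise was the only outcome they could give. Gzme reached it in no naive_untreated library either, with 0.0113 FPKM in replicate 2 and 0 in the others, so its rise is no open test. Runs of class I genes (H2-Q4 to H2-Q10, H2-T24 to H2-T9) and of guanylate-binding proteins (Gbp5 to Gbp2, Gbp8 to Gbp6) also rose, as did those of Psmb8, Psmb9, Tap1 and Tap2, of Trim12c to Trim30d and of Ifitm2 to Ifitm6, the last 2 with 3 members each higher than naive_GEMy.

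**Figure D3:**
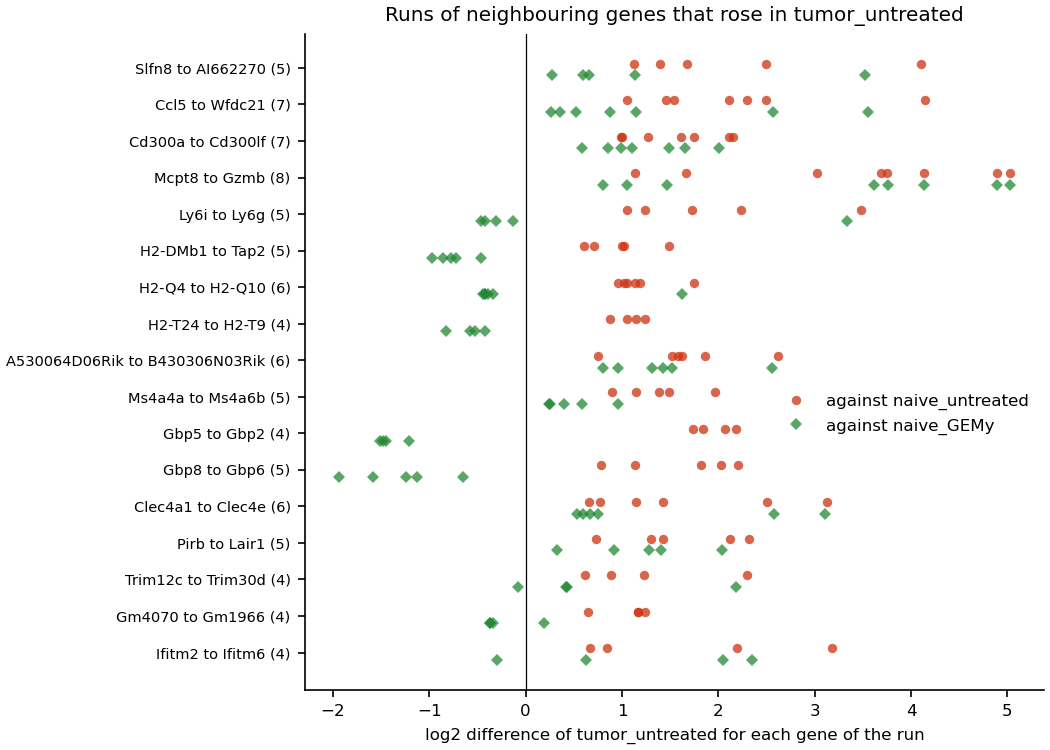
Each row is 1 of 17 runs of neighbouring genes, with the number of genes in brackets, and each mark is 1 gene placed by its log2 difference on the x axis, as a red circle against naive_untreated and a green diamond against naive_GEMy. The Cd300, Clec4 and granzyme runs are above 0 in both comparisons, whereas the Gbp runs lie between 0.78 and 2.20 against naive_untreated and below 0 against naive_GEMy. In the granzyme run Gzmd, Gzmf and Gzmg reached the minimum only through tumor-bearing lungs, and Gzme reached it in no naive_untreated library.

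Chemokines and adhesion genes followed. Of 29 tested members of the CXCR3 and CC chemokine list 19 rose and 3 fell (median 0.93). Cxcl9, a ligand that draws CXCR3-bearing T cells, stood at 0.0955, 0.126, 0.12 and 0.105 FPKM in naive_untreated and at 3.62, 7.02, 17.6 and 23.9 in tumor_untreated. No naive_untreated library of Cxcl9 reached the minimum. Cxcl10, its partner, stood at 0.588, 0.575, 0.687 and 0.553 and then at 6.98, 16.6, 29.5 and 41.1. Both groups lay apart for each gene, with library 1 the lowest and library 4 the highest of the tumor-bearing libraries. Ccr1 (a receptor for inflammatory CC chemokines, 2.65), Ccl4 (2.30), Ccl3 (2.11) and Ccl2 (1.56) rose, and Ccl21a, which guides cells into lymphoid tissue, fell by 0.45 (44.7 to 48.7 against 32.4 to 36.5 FPKM) and Cxcl14 by 0.55. Ccl19 (0.08), Cxcl13 (0.14) and Cxcl12 (-0.30) did not pass. The third fall, Cxcr5 (-0.34), marks B cell follicles and lost its call without any of 6 single libraries (naive_untreated replicates 2, 3 and 4, tumor_untreated replicates 1, 2 and 3; adjusted p = 0.0695 to 0.118).

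Leukocyte adhesion genes gave 12 rises and 2 falls among 20, the falls being Alcam (-0.26) and F11r (-0.25). Selplg, the ligand by which leukocytes roll, was at 6.01 to 8.26 FPKM in naive_untreated and at 23.8, 25.7, 28.0 and 28.8 in tumor_untreated (log2 1.80, SE 0.13). Itgam (1.76), Itgal (1.44) and Itgb2 (1.33) rose with it. On the vessel wall Sele (E-selectin) rose by 0.98, from at most 0.164 to between 0.361 and 1.03 FPKM, whereas Icam1 (-0.25) and Icam2 (0.02) did not pass. Sele reached the minimum in no naive_untreated library.

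Interferon genes rose throughout, but to different degrees in the 4 tumor-bearing libraries. All 17 tested interferon-induced GTPases rose (median 1.84), with medians of 0.98, 1.78, 2.17 and 2.58 in libraries 1 to 4. The 24 tested antiviral genes all rose as well (median 0.98), with 0.41 in library 1 against 1.06 to 1.27 in the others. Both counts were the same without library 4 or library 1, and with the hemoglobin covariate 23 of the 24 antiviral genes were called. Igtp, a GTPase that attacks the vacuoles of intracellular parasites, stood at 6.16, 7.09, 5.87 and 5.81 FPKM in naive_untreated. In tumor_untreated it stood at 18.7, 28.9, 35.6 and 47.5, a log2 difference of 2.23 (SE 0.19, adjusted p = 3.61e-07). Oas3 (2.40), Isg15 (2.07) and Irf7 (1.84) rose, and Ifng, interferon gamma, rose by 0.94 from at most 0.0562 to 0.224, 0.341, 0.666 and 1.18 FPKM, a call lost on quantile normalization (log2 0.59, adjusted p = 0.0508). Ifng reached the minimum in no naive_untreated library. The receptor gene Ifnar1 (0.04) and the receptor-associated kinase gene Jak1 (0.10) did not pass.

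Antigen presentation rose in 22 of 24 tested genes (median 0.71). B2m, the light chain of every class I molecule, was at 181 to 205 FPKM in naive_untreated and 329, 393, 451 and 451 in tumor_untreated (log2 1.04). Tap1, the peptide transporter, rose by 1.49 and H2-T23, which presents to natural killer receptors, by 1.15. Class II genes moved less, with H2-Aa at 0.31 and its transactivator Ciita at 0.57. The pair that fell, H2-Ob (-0.62) and H2-Oa (-0.42), encode the class II regulator H2-O made mainly in B cells, and H2-Oa did not pass when naive_untreated replicate 2 or 4 was left out (adjusted p = 0.0679 and 0.0953), or tumor_untreated replicate 2 or 3 (0.0795 and 0.0513). Of 13 checkpoint and costimulatory genes 10 rose. Cd274, PD-L1, read 1.43 to 1.77 FPKM in naive_untreated and 3.20, 6.39, 9.02 and 14.0 in tumor_untreated, and Ido1, which degrades tryptophan, read 0.0904 to 0.106 and then 0.315, 0.944, 1.84 and 3.01. Library 1 was the lowest and library 4 the highest for both, and Ido1 reached the minimum in no naive_untreated library.

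Set against naive_GEMy, neutrophil genes were higher and interferon GTPases lower in tumor_untreated. Between tumor_untreated and naive_GEMy 2335 genes (22.7%) differed, 885 higher in tumor_untreated (8.61%) and 1450 lower (14.1%). This comparison shares its tumor_untreated libraries with the one above, and the lungs also differ in the presence of a tumor and in the injected cells. Of the 24 neutrophil genes 21 were higher in tumor_untreated than in naive_GEMy (median 2.56) and none lower. Of the 17 GTPases none was higher and 15 were lower (median -1.31), and of 24 antigen presentation genes 22 were lower (median -0.56). For S100a8 naive_GEMy stood at 22.7, 38.6, 51.5 and 37.2 FPKM, within reach of naive_untreated and far below tumor_untreated (log2 4.60). For Igtp naive_GEMy stood at 113, 94.7, 97.5 and 112 FPKM, above every tumor_untreated library (log2 -1.73, adjusted p = 1.09e-05). Cxcl9 (0.90, adjusted p = 0.107) and Cxcl10 (0.15, adjusted p = 0.806) did not differ past the threshold, with unadjusted 95% intervals of 0.07 to 1.74 and -0.68 to 0.97 on the log2 scale. Of 24 antiviral genes 4 were higher in tumor_untreated than in naive_GEMy, Rsad2 (viperin, 1.14), Oas3 (1.06), Oasl1 (0.65) and Trim30a (0.43), and 8 were lower, led by Ifit3 (-1.11). Wars, a tryptophan-tRNA synthetase that interferon gamma induces, was at 8.45 to 15.5 FPKM in tumor_untreated and 35.0 to 50.6 in naive_GEMy (log2 -1.85). With hemoglobin as a covariate the difference from naive_GEMy was called for 475 genes, 294 higher and 181 lower. Without naive_GEMy replicate 1 the count of lower genes was 837, without replicate 2 it was 907 and without tumor_untreated replicate 4 it was 878.

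**Figure D4:**
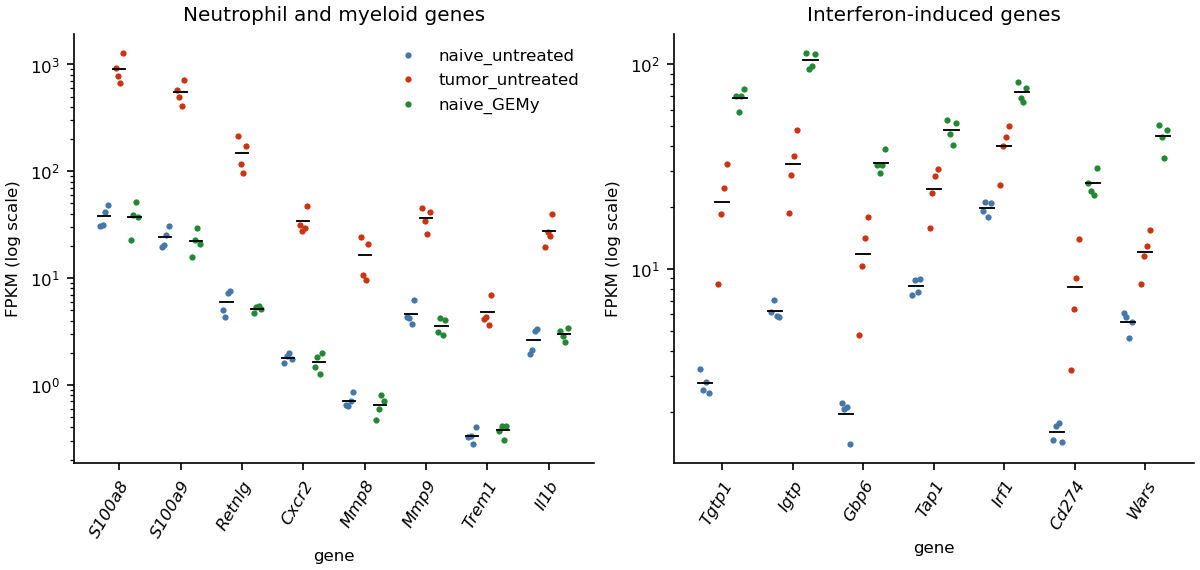
FPKM on a log scale (y axis) of 8 neutrophil and myeloid genes (left) and 7 interferon-induced genes (right) in the 4 libraries of naive_untreated (blue), tumor_untreated (red) and naive_GEMy (green), with lines at group means. On the left naive_GEMy lies with naive_untreated and tumor_untreated above both, and on the right tumor_untreated lies between the other groups.

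Sequence before the gene starts was described for the interferon and neutrophil genes. The 250 bases upstream of the RefSeq start (build GRCm38.p6, the assembly of mm10) were matched for 8126 of the 10284 tested genes and searched on both strands for 3 short motifs. These were the core of the interferon-stimulated response element, GAAANNGAA, the STAT-binding GAS, TTCNNNGAA, and a C/EBP core, TTGCNNAA, for the factors that drive granulocyte genes. Overlapping matches were each allowed. The first was present before 6.62% of all genes, 11.3% of the 1366 matched genes that rose and 5.98% of the 2174 that fell, at any fold. This motif stood before 22.8% of the 259 matched genes that rose at least 2-fold and before all 9 matched GTPases. It was present before 10 of 18 antiviral genes and before 0 of 21 neutrophil genes. The C/EBP core was present before 7.88% of all genes, 9 of 21 neutrophil genes, 1 of 9 GTPases and 0 of 18 antiviral genes, and the GAS before 5.73% of all genes and 6 of 9 GTPases. The C/EBP core was also present in lists that did not rise, before 5 of 10 alveolar macrophage genes, 3 of 8 B cell genes and 6 of 19 cytochrome P450 genes. A match is a description of letters, not a bound site or a cause, and these motifs were chosen after the values were known. Shown are 5 interferon-induced and 3 neutrophil genes, 5′ to 3′ on the gene's strand up to the base before the start, with every match to any of the 3 motifs in capitals:
Cxcl9, chr5:92328080-92328329, minus strand: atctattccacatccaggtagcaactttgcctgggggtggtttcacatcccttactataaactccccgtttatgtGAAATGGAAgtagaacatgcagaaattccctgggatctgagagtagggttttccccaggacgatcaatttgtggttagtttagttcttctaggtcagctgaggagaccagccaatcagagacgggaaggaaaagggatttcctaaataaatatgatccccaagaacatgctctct
Cxcl10, chr5:92348890-92349139, minus strand: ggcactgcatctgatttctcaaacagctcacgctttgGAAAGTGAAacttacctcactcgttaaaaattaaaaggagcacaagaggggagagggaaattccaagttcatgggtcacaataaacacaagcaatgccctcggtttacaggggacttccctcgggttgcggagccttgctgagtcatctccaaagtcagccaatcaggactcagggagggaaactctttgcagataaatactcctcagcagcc
Gbp2, chr3:142620413-142620662, plus strand: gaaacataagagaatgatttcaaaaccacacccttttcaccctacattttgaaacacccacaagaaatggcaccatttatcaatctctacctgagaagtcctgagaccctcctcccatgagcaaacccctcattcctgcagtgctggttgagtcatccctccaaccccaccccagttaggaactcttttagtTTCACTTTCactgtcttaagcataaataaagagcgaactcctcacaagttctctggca
Igtp, chr11:58199306-58199555, plus strand: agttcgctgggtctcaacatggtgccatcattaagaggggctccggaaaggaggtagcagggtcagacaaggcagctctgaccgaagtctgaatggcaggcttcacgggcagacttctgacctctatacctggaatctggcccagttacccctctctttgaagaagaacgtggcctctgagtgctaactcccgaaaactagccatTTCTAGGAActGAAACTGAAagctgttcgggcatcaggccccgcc
Isg15, chr4:156200819-156201068, minus strand: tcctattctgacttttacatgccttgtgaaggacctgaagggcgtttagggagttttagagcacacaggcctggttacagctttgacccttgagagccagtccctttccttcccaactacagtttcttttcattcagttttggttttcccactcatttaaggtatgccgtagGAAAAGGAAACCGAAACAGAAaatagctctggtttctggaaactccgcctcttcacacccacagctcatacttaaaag
S100a9, chr3:90695722-90695971, minus strand: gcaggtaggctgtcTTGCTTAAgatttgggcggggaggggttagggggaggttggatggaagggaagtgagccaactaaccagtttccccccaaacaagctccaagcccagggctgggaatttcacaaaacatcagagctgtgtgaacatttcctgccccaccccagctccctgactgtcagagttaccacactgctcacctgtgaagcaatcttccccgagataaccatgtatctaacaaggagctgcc
Retnlg, chr16:48872358-48872607, plus strand: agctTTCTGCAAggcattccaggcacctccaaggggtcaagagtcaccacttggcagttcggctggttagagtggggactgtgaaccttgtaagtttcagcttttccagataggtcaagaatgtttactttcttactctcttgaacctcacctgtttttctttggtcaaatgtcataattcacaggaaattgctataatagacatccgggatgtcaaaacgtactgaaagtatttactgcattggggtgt
Mmp8, chr9:7558179-7558428, plus strand: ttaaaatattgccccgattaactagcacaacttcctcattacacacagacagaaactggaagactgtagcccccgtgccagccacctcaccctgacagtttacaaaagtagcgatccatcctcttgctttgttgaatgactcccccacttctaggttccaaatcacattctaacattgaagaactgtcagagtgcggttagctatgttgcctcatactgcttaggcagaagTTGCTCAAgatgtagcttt

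The response element begins 175 bases before the start of Cxcl9, 213 before Cxcl10, 58 before Gbp2 and 34 before Igtp, where a GAS begins 45 bases before the start. Isg15, an interferon-induced ubiquitin-like protein that is attached to other proteins, has 3 overlapping copies from 78 to 66 bases before its start. In S100a9, Retnlg and Mmp8 the capitals are C/EBP cores, 236, 246 and 19 bases before the start. Other genes of both kinds had no match, S100a8, Cxcr2, Wfdc17, Il1b and Acod1 on one side and the interferon-induced Tap1 and Irf7 on the other, and Cyp1a1, which fell, had a response element match. No match says only that these letters are not in this window.

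Cytotoxic lymphocyte genes rose and B cell genes fell. All 14 tested natural killer and cytotoxic genes rose (median 0.88), and without library 4 the count was 13. The median was 0.28 in library 1 and 1.05 to 1.11 in the other 3. Gzmb, a granzyme that kills target cells, stood at 1.36, 1.66, 2.25 and 1.94 FPKM in naive_untreated and at 8.16, 21.3, 23.6 and 25.4 in tumor_untreated (log2 3.02). Its neighbours Gzmd, Gzmf and Gzmg were at 0 in all 4 naive_untreated and all 4 naive_GEMy libraries. They were tested only because tumor-bearing lungs reached the minimum, so their calls in both comparisons could only be rises. In tumor_untreated Gzmg read 7.39, 12.2, 18.3 and 37.4 FPKM and Gzmd 7.51, 10.7, 15.8 and 33.0, highest in library 4 and lowest in library 1. These copies are alike in sequence, so reads may be shared among them. Gzma (1.63) and Prf1 (perforin, 1.68) rose against naive_untreated, but did not differ past the threshold from naive_GEMy, where both means were higher (adjusted p = 0.0537 and 0.0553).

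T cell genes moved less, with 8 of 13 rising. Cd44 (0.85), which rose, is shared with other leukocytes, Cd8a rose by 0.89 with groups that overlapped, and Cd3e (0.30), Cd4 (0.07) and Il7r (0.20) did not pass. Without library 4 or with the hemoglobin covariate 5 rose. Of 12 B and plasma cell genes 8 fell and none rose (median -0.59). Cd79b, a chain of the B cell receptor, was at 20.1, 30.8, 27.2 and 37.0 FPKM in naive_untreated and at 13.4, 10.6, 12.8 and 18.5 in tumor_untreated, without overlap (log2 -1.03, adjusted p = 0.00029). Fcer2a, the low-affinity IgE receptor CD23 of follicular B cells, fell by 1.17 and Tnfrsf13c, the BAFF receptor, by 0.79. Plasma cell genes Jchain (-0.20) and Xbp1 (0.09) did not pass.

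**Figure D5:**
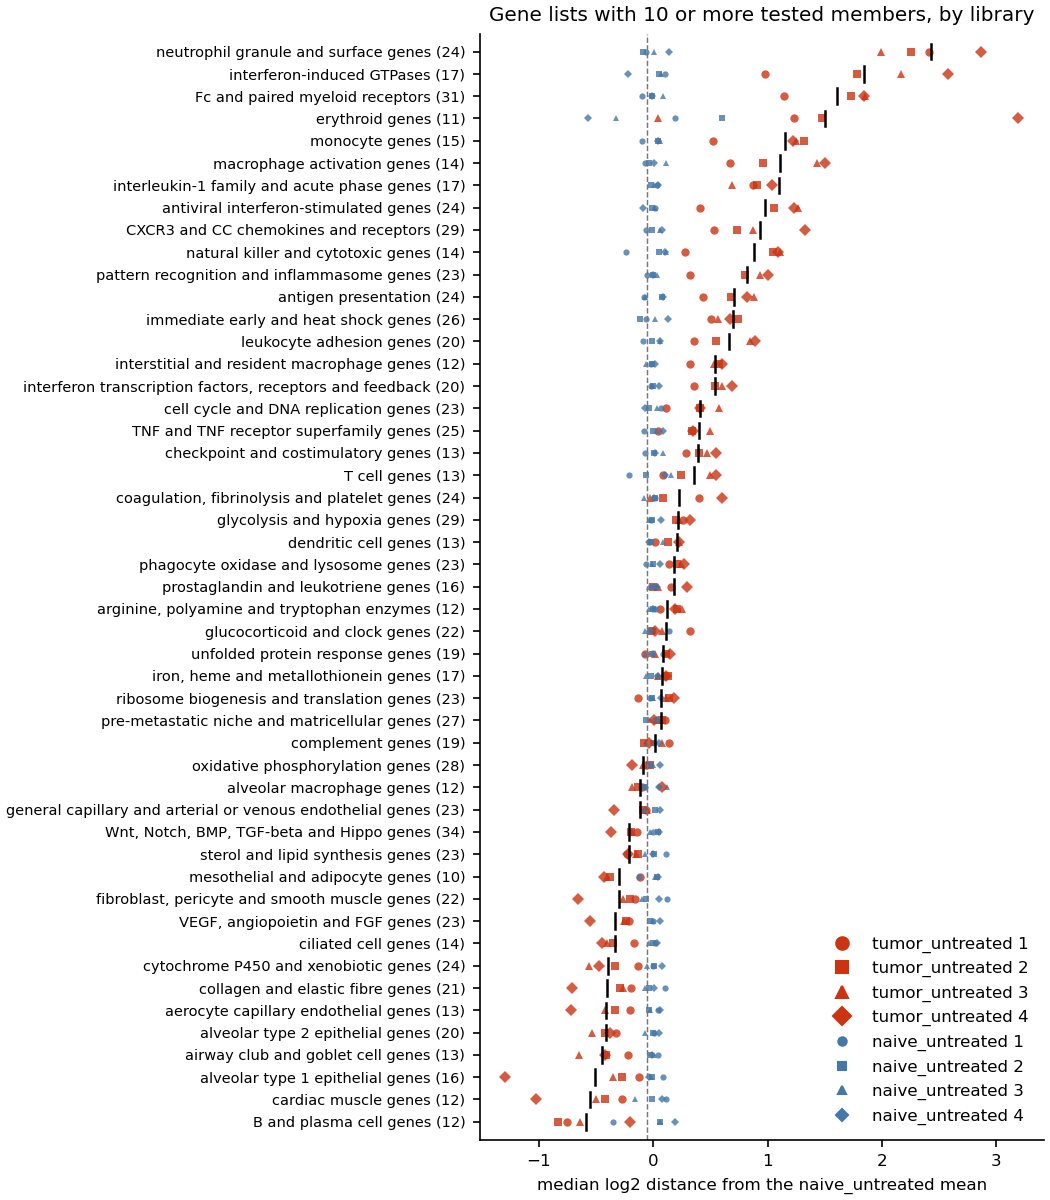
Median log2 distance from the naive_untreated mean (x axis) of each gene list with 10 or more tested members (y axis, number in brackets), with red symbols for tumor_untreated libraries, blue for naive_untreated libraries, a black bar for the median of the fitted differences and a dashed line at the median of all genes. Library 1 (circle) lies left of the other red symbols in the interferon and cytotoxic lists but not in the neutrophil list, and library 4 (diamond) lies apart at -1.29 in the alveolar type 1 list and at 3.19 in the erythroid list.

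Niche and matrix genes were mixed. Of 27 tested genes linked to the pre-metastatic niche 10 rose and 6 fell (median 0.07), and the risen ones are leukocyte genes such as S100a8, S100a9, Mmp9, Itgam (1.76) and Spp1, with Thbs1 (0.98), Timp1 (0.53) and Saa3 (0.56). Of all genes 16.9% rose and 27.2% fell, so the share of falls in this list was not above that of all genes. Fn1, fibronectin, read 6.19 to 7.34 FPKM in naive_untreated and 6.27 to 8.24 in tumor_untreated, overlapping (log2 0.07, 95% interval -0.12 to 0.26). Lox, the collagen crosslinker, was at 2.98 to 4.05 FPKM in naive_untreated and at 7.20 in tumor_untreated library 1 but 3.21, 3.13 and 3.57 in the others, and did not pass. Angpt2, the vessel-destabilising angiopoietin, fell from 0.704, 0.817, 0.866 and 0.972 FPKM to 0.425, 0.535, 0.373 and 0.344 (log2 -0.54, adjusted p = 9.45e-06). Without library 4 the falls in this list numbered 3, and with the hemoglobin covariate 2.

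Of 21 collagen and elastic fibre genes 15 fell and none rose (median -0.40), and their median was -0.19, -0.29 and -0.26 in libraries 1 to 3 and -0.71 in library 4. Eln, elastin, stood at 6.31, 5.30, 4.83 and 5.23 FPKM in naive_untreated and at 3.73, 3.50, 3.35 and 2.56 in tumor_untreated (log2 -0.65, adjusted p = 0.00229). Mfap4, a microfibril protein, fell by 0.83 and Col3a1 by 0.52, and the basement membrane genes Col4a1 (0.00) and Col4a2 (-0.14) did not pass. Among 22 fibroblast, pericyte and smooth muscle genes 13 fell and 1 rose, Pi16 (0.73), a marker of adventitial fibroblasts, from 3.01 to 3.48 FPKM to 5.29 to 6.33. Without library 4 the falls numbered 11 in the collagen list and 8 in the fibroblast list, and with the hemoglobin covariate 10 and 6.

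Alveolar type 2 genes, which make surfactant, fell in 15 of 20 with 1 rise (median -0.41). Without library 4 the falls were 17. Sftpc, surfactant protein C, stood at 4698, 4862, 4395 and 4864 FPKM in naive_untreated and at 3667, 3281, 2865 and 3221 in tumor_untreated (log2 -0.53, adjusted p = 0.000383), a call lost on quantile normalization (adjusted p = 0.22). Lpcat1, which remodels surfactant phospholipid, fell by 0.55 with an SE of 0.06. The rise was Lcn2, lipocalin 2, which neutrophils also make, from 26.4 to 35.2 FPKM to 85.4, 59.5, 48.6 and 84.5. Among alveolar type 1 genes, of the thin gas exchange cells, 5 of 16 fell, a share near the 27.2% of all genes, with list medians of -0.12, -0.27, -0.35 and -1.29 in libraries 1 to 4. Ager, their defining marker, read 843, 832, 709 and 858 FPKM in naive_untreated and 698, 588, 571 and 240 in tumor_untreated (log2 -0.73, adjusted p = 0.0452). Without tumor_untreated replicate 4 the adjusted p was 0.154 and 1 gene of the list fell, without replicate 1 12 fell, and with the hemoglobin covariate none did. The Ager call was also lost without any 1 naive_untreated library (adjusted p = 0.0536 to 0.094).

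In the ciliated cell list 13 of 14 fell (median -0.33), among them Tekt4 (-0.58), a protein of the cilium's microtubules. In the club and goblet cell list 10 of 13 fell, a count that includes Kdr, an endothelial gene placed there by mistake. Bpifb1, a secreted antimicrobial protein, went from 6.06 to 7.22 FPKM to 5.28, 3.36, 3.25 and 2.42 (log2 -0.82), and Cyp2f2, the club cell P450, fell by 0.45. Scgb1a1, the main club cell secretion, stood at 6976 to 7513 FPKM and then at 4763 to 6268 (log2 -0.39), a call lost on quantile normalization (adjusted p = 0.312).

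Of 23 general endothelial genes 8 fell, a share near the 27.2% of all genes, and 2 rose, Lyve1 (0.79), a lymphatic and macrophage receptor, and Cd93 (0.47). Pecam1, the pan-endothelial junction protein, did not pass at 0.06 (16.5 to 18 against 15.6 to 20.1 FPKM). Aplnr, the apelin receptor of general capillaries, fell from 38.1, 44.5, 49.6 and 53.2 FPKM to 21.8, 29.1, 31.6 and 18.9 (log2 -0.88), and its ligand Apln, made by aerocytes, from 9.76 to 12.5 to 6.70 to 8.35 FPKM (-0.51). Of 13 aerocyte genes 8 fell and 1 rose, Prx (0.45). Kdr, the main VEGF receptor, fell by 0.50 with groups apart, while Vegfa was at 39.0, 41.5, 39.1 and 22.7 FPKM against 43.5 to 51.7 and did not pass (adjusted p = 0.0719). With the hemoglobin covariate 3 endothelial and 4 aerocyte genes fell, and with median-of-ratios scaling 3 and 6.

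Growth factor pathways held more falls than rises, as did all genes, of which 27.2% fell and 16.9% rose. In the Wnt, Notch, BMP, TGF-beta and Hippo list 19 of 34 fell and 5 rose, and with the hemoglobin covariate 12 fell and 4 rose. Bmp4, a ligand for vessel and airway patterning, went from 8.93 to 10.7 FPKM to 5.57, 6.60, 6.05 and 4.80 (log2 -0.69, adjusted p = 1.51e-05). Dll1, a Notch ligand that instructs monocyte and B cell fate, rose from 3.11 to 3.48 FPKM to 9.51, 9.46, 10.4 and 10.2 (log2 1.44, SE 0.11), while the endothelial ligand Dll4 fell by 0.42. Of 23 VEGF, angiopoietin and FGF genes 14 fell, Pdgfb by 0.53 and Fgfr4 by 0.54 among them. With the hemoglobin covariate 8 of this list fell and with median-of-ratios scaling 9. The 1 rise, Angptl4 (1.01), rested on library 1 at 17.7 FPKM against 5.09 to 6.49 in the others, and it did not pass with that library left out (adjusted p = 0.0617), or with naive_untreated replicate 1 (0.0658) or 2 (0.0754) left out.

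Of 29 glycolysis and hypoxia genes 16 rose and 1 fell, but the median was 0.22 and the leaders were the lactate exporter Slc16a3 (2.02), the myeloid hexokinase Hk3 (1.84) and the glucose transporter Slc2a3 (1.64). Slc16a3 stood at 1.51 to 1.91 FPKM in naive_untreated and 7.18, 8.79, 7.93 and 10.1 in tumor_untreated. Hypoxia targets Bnip3 (0.08) and Ankrd37 (0.16) did not pass. Egln3 and Car9 of this list were under the minimum and were not tested. Egln3 read 0.092 to 0.103 FPKM (282 reads) in naive_untreated and 0.237 to 0.319 (828 reads) in tumor_untreated, and the groups of Car9 overlapped. Of 23 sterol and lipid synthesis genes 13 fell and 1 rose. Scd1, the desaturase of fatty acids, stood at 391, 314, 297 and 260 FPKM and then at 136, 168, 147 and 156 (log2 -1.04, adjusted p = 0.000545), and Fasn fell by 0.53. Ch25h, which makes 25-hydroxycholesterol, rose by 1.23. With median-of-ratios scaling 6 fell and 3 rose. Of 28 oxidative phosphorylation genes 5 fell and none rose, with that scaling 3 rose and none fell, and without library 4 2 fell. Their share of falls was under the 27.2% of all genes.

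Some lipid mediator and iron genes rose. Pla2g7 (1.88), which degrades platelet-activating factor, Alox5ap (1.79), the activator of leukotriene synthesis, and Ltb4r1 (1.53), the leukotriene B4 receptor, led 5 rises among 16, and Ptges, a prostaglandin E synthase, fell by 0.65. Of 17 iron, heme and metallothionein genes 7 rose and 6 fell (median 0.08, or -0.16 on quantile normalization), against 16.9% and 27.2% of all genes. Slc40a1, the iron exporter ferroportin, went from 0.884, 0.914, 1.21 and 1.02 FPKM to 4.00, 4.81, 4.83 and 4.99 (log2 1.77), and naive_GEMy stood lower than both at 0.604 to 0.752. Steap4 (2.00) and Slc11a1 (1.84), both metal handling genes of myeloid cells, and Hmox1, heme oxygenase (1.05), rose, while Hamp, hepcidin (-0.54), and Tfrc, the transferrin receptor (-0.38), fell.

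Some xenobiotic and glucocorticoid-responsive genes changed. Of 24 cytochrome P450 and xenobiotic genes 15 fell and 1 rose (median -0.39). Cyp1a1, the classical target of the aryl hydrocarbon receptor, went from 3.24, 3.23, 2.12 and 3.37 FPKM to 1.69, 0.822, 0.637 and 0.692 (log2 -1.29, adjusted p = 5.22e-05), and the receptor Ahr itself fell by 0.65 from 3.31 to 4.93 to 2.04 to 2.53 FPKM. In the glucocorticoid and clock list 6 of 22 rose and 2 fell. Per1 read 3.00 to 4.59 FPKM in naive_untreated and 20.2, 12.0, 13.2 and 13.3 in tumor_untreated (log2 1.78), and Tsc22d3, the glucocorticoid-induced leucine zipper, 1.85 to 2.40 and then 9.39, 4.87, 5.09 and 6.69 (1.38). Ddit4 rose by 0.83, with 28.1 FPKM in library 1 against 13.8 to 16.8 in the others, so library 1 was the highest for all 3. Nr1d1, a clock repressor, fell by 0.93 (29.1 to 48.7 against 14.7 to 27.1 FPKM), and the time of day of collection is not stated. Clock (-0.08), Dbp (-0.33) and Per3 (-0.03) did not pass.

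Stress and division genes rose moderately. Of 26 immediate early and heat shock genes 17 rose and 3 fell (median 0.70). Hspa1a, an inducible heat shock protein, read 3.89 to 6.71 FPKM in naive_untreated and 10.1, 23.5, 17.1 and 28.9 in tumor_untreated (1.86), Atf3 rose by 1.57 and Klf4 by 1.39. Of 23 cell cycle genes 18 rose (median 0.41) and none fell, and the largest rise was that of an inhibitor, Cdkn1a (p21), from 5.99 to 6.78 FPKM to 24.0, 12.5, 15.0 and 17.4 (1.33). Ube2c (1.25), Rrm2 (0.90) and Mki67 (0.87) followed. Unfolded protein response genes gave 3 rises and 3 falls of 19, and ribosome biogenesis and translation genes 2 rises of 23, or 6 with median-of-ratios scaling and 8 without tumor_untreated replicate 1. In the main fit 16.9% of all genes rose and 27.2% fell.

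The largest falls included genes outside these lists. Ankrd63, an ankyrin repeat gene of unknown role, stood at 7.36, 8.94, 6.93 and 9.45 FPKM in naive_untreated and at 3.75, 2.60, 1.87 and 2.01 in tumor_untreated (log2 -1.53, adjusted p = 1.23e-06). Ppp1r3c (-1.14), which directs a phosphatase to glycogen, Shisa2 (-1.04), Efna1 (an ephrin ligand, -1.01), Esm1 (endocan of angiogenic endothelium, -0.99) and the Wnt receptor Fzd2 (-0.97) fell with groups apart. Shisa2 had the tightest groups of these, 1.21 to 1.42 FPKM against 0.338 to 0.466, with an SE of 0.07.

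Muscle and tumor lineage genes were few and low in these lungs. Of the rhabdomyosarcoma and skeletal muscle list 4 genes were tested and all fell, Fgfr4 (-0.54), Ckm (-0.43), Des (-0.39) and Igf2 (-0.36), although Des did not pass with tumor_untreated replicate 4 left out (adjusted p = 0.0579). Of 7 rhabdomyosarcoma and skeletal muscle markers only 3 had values, Fgfr4, Myh3 and Cdh15. Their sum was 1.82 to 2.40 FPKM in naive_untreated and 1.04 to 1.53 in tumor_untreated. That sum was almost all Fgfr4, since Myh3 reached at most 0.0122 FPKM and Cdh15 at most 0.00941, so it adds little to the Fgfr4 fall. The members under the minimum were not tested. Mymk, a myoblast fusion gene, had 3 reads over the naive_untreated libraries (0, 0, 0.00668 and 0.0032 FPKM) and 16 over tumor_untreated (0.0172, 0.0154, 0.0103 and 0.00586), while Myh3 had 16 and 21 reads and Acta1 30 and 29. Myod1, Myog, Myf5 and Chrnd had no values among the 18262 genes, and the tumor's reporter genes were not analysed here. Cardiac muscle genes, from pulmonary vein sleeves or heart tissue, fell in 10 of 12, with a median of -1.02 in library 4 against -0.27 to -0.50 in the others, and with the hemoglobin covariate 4 fell.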

How the data were processed

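Lung RNA was sequenced in 16 libraries of 4 groups, with groups and replicate numbers taken from the sample titles. The authors deposited FPKM per gene, and per the submitters' processing notes STAR 2.7.3a, Partek and mm10 were used. The annotation and the counting settings are not given in the sources used here. The values divide by the gene's genomic span, so levels were compared only within a gene. From the deposited FPKM whole reads were recovered for 87.1 to 87.9% of values under 1000 reads, within 0.02 reads, which gave 27566837 to 33150515 assigned reads in the 8 untreated libraries.

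The test took genes that reached 0.5 FPKM in 4 or more of the 16 libraries, as log2(FPKM + 0.5) with limma 3.58.1 in R 4.3.3. Genes that no naive_untreated library carried past this minimum were tested only through other groups, and their rises are counted in the lists. The fit had 4 group means, a trended prior, robust moderation and 12 residual degrees of freedom, with Benjamini-Hochberg adjustment over 10284 genes. The scripts were tested on simulated data. Plots used matplotlib 3.10.9 under Python 3.11.15.

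The genes and lists were chosen with earlier results of these data known. The rule for named genes took the 15 largest rises and 15 largest falls whose groups do not overlap, the 3 largest changes and the highest member of each list, a fixed set of immune, lung and muscle genes, and up to 5 members that moved against their list or were under the minimum. Further list members were named after their values were seen. The rule for runs of neighbours, the motifs and the scaling without hemoglobin reads were also chosen after seeing the data. Promoter windows were taken from RefSeq on GRCm38.p6. Alternatives changed the pseudocount, the minimum, the scaling, the moderation, the libraries fitted and the covariates. Some list members are not reported here.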

Additional observations from a re-analysis of the deposited data

Results flagged for a closer look

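In 33 of 496 groups of 4 values, 1 library lay far from the other 3, with a gap above Dixon's critical value. Chance alone marks about 1 group in 20. Tumor_untreated libraries gave 19 of them (12 in replicate 4 and 7 in replicate 1) and naive_untreated libraries 14.

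Tumor_untreated replicate 4 was the lowest for Vegfa, with 22.7 FPKM against 39.0 to 41.5 in the others. It was also the lowest for Aldoa (96.8 FPKM), Cadm1 (0.434), Efna1 (4.53) and F11r (6.38). The same library was the highest for Hbb-bs, with 5533 FPKM against 487 to 1290. It was the highest for Osm (4.45 FPKM), Ccr1 (17.3), Wfdc17 (52.6), Alox5ap (8.91), Egr1 (28.1) and Plet1 (6.66) as well.

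Tumor_untreated replicate 1 was the highest for Angptl4, with 17.7 FPKM against 5.09 to 6.49, for Lox, with 7.20 against 3.13 to 3.57, for Per1 (20.2 FPKM) and for Trib3 (0.873). That library was the lowest for Treml4, with 2.39 FPKM against 5.23 to 5.78, for Slc11a1 (4.34) and for Ftl1 (587).

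Among naive_untreated libraries, replicate 3 was the lowest for Cyp1a1 (2.12 FPKM), Lbp (2.39), Myl7 (21.5), Nr1d1 (29.1) and Slc2a3 (1.25) and the highest for Edem1 (2.95) and Siglecf (2.16). Replicate 1 was the lowest for Hvcn1 (1.39 FPKM), Tnfrsf13c (2.55) and Tnfrsf1b (2.51). Replicate 2 was the lowest for Serpine2 (1.73 FPKM) and the highest for Gzme (0.0113, with 0 in the others). Replicate 4 was the lowest for Gbp6 (1.40 FPKM) and the highest for Tnfsf14 (0.865).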

How the results depend on the processing

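For tumor_untreated minus naive_untreated, genes called lower numbered 1751 with median-of-ratios scaling and 1777 with hemoglobin as a covariate, and at least 2-fold 346 genes were called in all, 336 higher and 10 lower. For tumor_untreated minus naive_GEMy, genes called in all, genes called higher and genes called lower came to 475, 294 and 181 with the hemoglobin covariate, and to 182, 146 and 36 at least 2-fold. In that comparison genes called lower were 850 with median-of-ratios scaling, the fit of only the groups compared gave 1498 in all and 804 lower, and array weights gave 1396 higher. Leaving out 1 library at a time, it gave 1543 to 3105 genes in all, 667 to 1169 higher and 837 to 1936 lower. The replicate numbers did not pair the libraries, since deviations of same-numbered libraries correlated at 0.155, -0.127, 0.197 and -0.313. With the replicate block 1876 genes were called higher and 2892 lower against naive_untreated, and among the named genes 2 calls were lost and 2 gained. Of 224 called named genes 178 lost no call under the alternatives that gave them a value (21 or 22 each), and calls were lost most often with the hemoglobin covariate (34), without tumor_untreated replicate 4 (19) and with median-of-ratios scaling (19). No named gene reversed, but the medians of 3 of 54 lists changed sign (complement, coagulation and iron genes).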
